A study of Mus musculus with 27 samples.

Results

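The level of each gene's RNA in soluble nucleoplasm relative to cytoplasm was compared between mouse cortical neurons and mouse embryonic stem cells. Each library was scaled to its own size, so the ratios are relative to other genes and do not give the share of a gene's RNA in a fraction. The comparison took, for each gene, the nucleoplasm-to-cytoplasm ratio in neurons against the same ratio in stem cells. It used 12 of the 27 libraries of the series, 3 biological replicates of each fraction in each cell type. Genes were included where the mean level reached 1 CPM (the count scaled to library size) in at least 1 of the fractions of each cell type, which left 12413 of the 37332 genes in the count table, all of them among the 18252 genes tested. Genes encoded by the mitochondrial genome were set apart.

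The stem cells (mESC) were the E14 line, kept with the cytokine LIF on gelatin-coated dishes. The neurons (mCtx) were primary cortical cultures kept 5 days on poly-L-lysine. No genotype or drug separated the groups, so cell type was confounded with line against primary culture and with culture medium, which cannot be told apart. RNA longer than 200 nt was depleted of ribosomal RNA and sequenced as stranded 100 bp pairs, and a neural progenitor line (mNPC) handled in the same way is cited below for its own ratio. Total counts of the 12 libraries ran from 11249862 to 19871198. Counts cover the whole gene span, introns included.

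Cell fractionation of this kind opens the plasma membrane, collects the nuclei, and then separates the soluble nuclear contents from chromatin. Messenger RNAs of secreted, lysosomal and membrane proteins are translated by ribosomes bound to the endoplasmic reticulum (ER), whose membrane is continuous with the outer nuclear membrane. Such proteins are recognised by the hydrophobic signal peptide at their start or by a membrane-spanning stretch. In the genetic code every codon with T at its middle position encodes phenylalanine, leucine, isoleucine, methionine or valine, all hydrophobic, so a run of such codons marks a hydrophobic stretch.

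Among the genes with the most different ratios, those lower in neurons often had such runs in the first codons, whereas those higher in neurons rarely had. The coding starts below show this contrast and its exceptions. They are the first 90 coding bases, 5′ to 3′, of 5 genes whose ratio was lower in neurons and of 4 whose ratio was higher, from GENCODE M21 transcripts on GRCm38 (mm10), and capitals mark the codons with T at the middle position. Calreticulin (Calr), at chr8:84841850-84846934 on the minus strand, is an ER chaperone. The tetraspanin Cd9, at chr6:125460266-125494791 on the minus strand, and connexin 43 (Gja1), at chr10:56377300-56390419 on the plus strand, are membrane proteins. Osteopontin (Spp1), at chr5:104435118-104441050 on the plus strand, is secreted, and Mmgt1, at chrX:56585512-56598069 on the minus strand, belongs to the ER membrane insertase. Clathrin heavy chain (Cltc), at chr11:86694351-86757565 on the minus strand, the spliceosomal helicase Snrnp200, at chr2:127208386-127240451 on the plus strand, the phosphodiesterase Pde4d, at chr13:108449948-109953461 on the plus strand, and the kinesin Kif1a, at chr1:93015456-93101865 on the minus strand, are cytosolic or nuclear proteins.
Calr: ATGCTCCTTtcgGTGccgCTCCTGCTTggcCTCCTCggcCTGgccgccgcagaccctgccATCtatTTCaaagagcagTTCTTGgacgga
Cd9: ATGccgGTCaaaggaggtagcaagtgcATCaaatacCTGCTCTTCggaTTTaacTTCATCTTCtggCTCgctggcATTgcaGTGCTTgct
Gja1: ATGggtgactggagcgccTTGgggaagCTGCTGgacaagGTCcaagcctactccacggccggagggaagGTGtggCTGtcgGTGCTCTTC
Spp1: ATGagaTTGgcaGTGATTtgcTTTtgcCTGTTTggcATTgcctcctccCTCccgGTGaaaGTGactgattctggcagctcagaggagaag
Mmgt1: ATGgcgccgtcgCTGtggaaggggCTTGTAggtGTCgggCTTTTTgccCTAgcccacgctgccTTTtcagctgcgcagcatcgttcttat
Cltc: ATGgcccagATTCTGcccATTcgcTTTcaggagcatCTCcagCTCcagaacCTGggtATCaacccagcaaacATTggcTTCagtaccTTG
Snrnp200: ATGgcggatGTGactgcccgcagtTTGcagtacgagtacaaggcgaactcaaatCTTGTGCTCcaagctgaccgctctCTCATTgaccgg
Pde4d: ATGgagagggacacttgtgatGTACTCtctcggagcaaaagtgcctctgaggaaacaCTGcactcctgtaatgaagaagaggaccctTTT
Kif1a: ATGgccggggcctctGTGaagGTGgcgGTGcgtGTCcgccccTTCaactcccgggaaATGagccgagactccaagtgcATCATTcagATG
In these 30 codons, T was in the middle of 14 for Calr and Cd9, 11 for Spp1, 10 for Gja1 and 9 for Mmgt1, against 12 for Cltc, 10 for Kif1a, 8 for Snrnp200 and 5 for Pde4d, so the totals overlap. The densest 12 codons within the first 35 held 9 for Calr and Gja1, 8 for Cd9, 7 for Spp1 and 6 for Mmgt1, against 6 for Cltc, 5 for Kif1a and Snrnp200 and 3 for Pde4d. For Gja1 these 12 codons run past the printed 30, so its printed bases do not show the whole stretch. Mmgt1 and Cltc were alike by this measure although their ratios differed in opposite directions.

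The labels were checked against cell type markers. The summed level of 9 stem cell markers, Pou5f1 and Nanog among them, was 2962 to 4607 CPM in the mESC libraries and 2.54 to 3.73 CPM in the mCtx libraries. The summed level of 14 cortical neuron markers was 6188 to 9738 CPM in mCtx and 169 to 337 CPM in mESC. Markers of other cells were also present. In mCtx, 10 radial glia and progenitor markers summed to 429.7 to 958 CPM and 8 astrocyte markers to 563 to 789.7 CPM. In mESC, however, the former summed to 357 to 723 CPM. The astrocyte sum was 558 to 662 CPM in mESC nucleoplasm and 124 to 161 CPM in mESC cytoplasm. The astrocyte marker Gja1, described below, was by itself nearly at that nucleoplasm level. In mESC nucleoplasm 8 endothelial and mural markers summed to 191 to 465 CPM. A set of 11 interneuron markers summed to 121 to 249 CPM in mCtx, against 8.01 to 15.9 CPM in mESC. For 8 oligodendrocyte lineage markers the sums were 65.7 to 171 CPM in mCtx and 6.09 to 49.6 CPM in mESC. For 8 microglia markers they overlapped, at 27.4 to 53.2 CPM in mCtx and 27.8 to 74.6 CPM in mESC. In bulk RNA, fewer cells of a type and less RNA per cell cannot be told apart, and the part of these cells in the ratios was not tested. The mESC libraries numbered 1 stood apart in every fraction: the chi-square per degree of freedom between nucleoplasm or cytoplasm replicates was 47.2 to 71.7 for pairs with number 1 and 11.6 to 13.2 for the other pairs. The values below use all libraries, and the counts without those 3 libraries are given where they matter.

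The nucleoplasm-to-cytoplasm ratio differed between neurons and stem cells for 7386 of the 12413 genes, or 59.5%, at an adjusted p under 0.05 (edgeR's quasi-likelihood test, Benjamini-Hochberg adjustment over all genes tested). The ratio was higher in mCtx for 3529 genes (28.4%) and lower for 3857 (31.1%). Without the mESC libraries numbered 1, 7889 genes were called, 3814 higher and 4075 lower, and 7153 genes were called in the same direction both ways. The larger changes lay on the lower side: 1253 genes were lower by a log2 change of 2 or more, against 262 higher, and 308 against 23 passed a log2 change of 3. The direction of the small changes depends on scaling. With total-count scaling the median log2 change of all 12413 genes moved from -0.02 to -0.63, and the calls became 1542 higher and 6174 lower. On the authors' TPM (transcript abundance scaled to length and depth), tested with limma as log2(TPM + 1), the median was 0.82 and the calls were 6952 higher and 1145 lower. After each TPM library was rescaled by its median ratio, the median was 0.10, with 3779 higher and 3077 lower. Changes are therefore best read relative to the median of all genes under the same scaling.

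Within mCtx, 70.5% of the genes differed between nucleoplasm and cytoplasm (34.6% higher in nucleoplasm, 35.9% lower), and within mESC 74.4% did (35.1% and 39.2%). With total counts these splits became 3111 higher and 5932 lower within mCtx and 5190 higher and 3423 lower within mESC, so the classes below depend on scaling. The 3 ratios of same-numbered libraries did not overlap between the cell types for 9292 genes (74.9%). Of the genes with a lower ratio in mCtx, 855 were significantly higher in nucleoplasm than cytoplasm in mESC and significantly higher in cytoplasm in mCtx, and 1063 were nucleoplasm-high in mESC and called in neither direction in mCtx. Of the genes with a higher ratio in mCtx, 867 went from cytoplasm-high in mESC to nucleoplasm-high in mCtx, and 955 from no call to nucleoplasm-high. Genes called in neither comparison within a cell type nor between them numbered 1025.

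**Figure D1:**
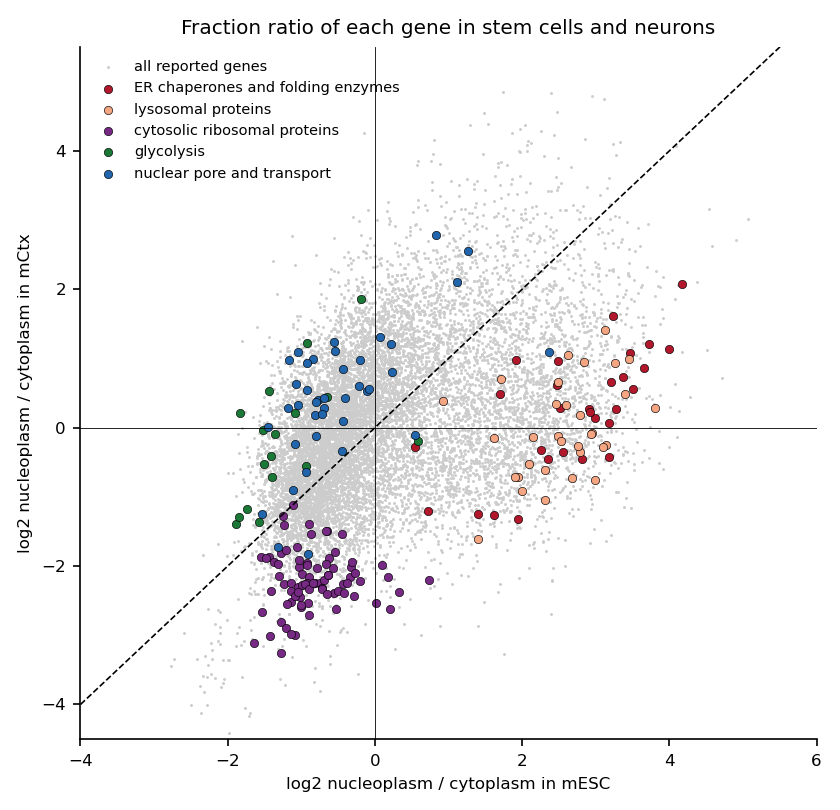
Each grey point is 1 of the reported genes, placed by its log2 nucleoplasm-to-cytoplasm ratio in mESC (x axis) and in mCtx (y axis), and coloured points are the members of 5 gene lists. ER chaperones and lysosomal genes lie to the right of the dashed line of equal ratios, with median ratios of 2.91 and 2.61 in mESC against 0.28 and -0.13 in mCtx, ribosomal protein genes lie below it, and most glycolysis and nuclear pore genes lie above it.

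Genes of the secretory pathway had the lowest ratios in neurons relative to stem cells. Of 29 genes for ER chaperones and folding enzymes, 28 had a lower ratio in mCtx and 0 a higher one. Their median log2 change was -2.65, beside -0.02 over all genes, and it ranged from -3.25 with total-count scaling to -1.52 on log2(TPM + 1). The median member was 2.91 higher in nucleoplasm on the log2 scale in mESC, 1.94 higher in mNPC and 0.28 higher in mCtx. The change had a part in each fraction: the median nucleoplasm level was lower in mCtx than in mESC by a log2 change of -1.27, and the median cytoplasm level was higher by 1.29. Summed over the list, levels were 10747 to 14243 CPM in mESC nucleoplasm and 1445 to 1729 CPM in mESC cytoplasm, against 4747 to 5077 CPM and 3560.3 to 3619.6 CPM in mCtx.

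The chaperone BiP (Hspa5, chr2:34771970-34776531), the main Hsp70 of the ER lumen, was at 779, 968 and 1377 CPM in mESC nucleoplasm and at 47.9, 64.6 and 82.8 CPM in mESC cytoplasm. In mCtx it was at 468, 434 and 486 CPM in nucleoplasm and at 216, 199 and 218 CPM in cytoplasm. The fractions did not overlap in either cell type, but the gap was 16-fold in mESC and 2.19-fold in mCtx. The ratio was lower in mCtx by a log2 change of -2.87 ± 0.26 (SE; adjusted p = 1.24e-09). Calr was at 765, 965 and 1226 CPM in mESC nucleoplasm against 91.8, 126 and 156 CPM in mESC cytoplasm, and at 489.6, 455 and 502 CPM against 419, 434 and 455 CPM in mCtx. The mCtx fractions met at 455 CPM, and the log2 change was -2.84 ± 0.25 (adjusted p = 4.34e-10). Serpinh1, a collagen-specific chaperone, crossed from nucleoplasm-high in mESC (log2 ratio 3.19) to cytoplasm-high in mCtx (-0.43).

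All 26 genes for ER translocation and N-glycosylation had a lower ratio in mCtx, with a median of -2.44, from -3.04 with total counts to -1.27 on log2(TPM + 1). Ssr3, a subunit of the translocon-associated complex, was at 315, 390.0 and 470.3 CPM in mESC nucleoplasm against 68.4, 79.3 and 82.5 CPM in cytoplasm. In mCtx the order was turned around, with 74.4, 72.3 and 73.2 CPM in nucleoplasm against 251, 215 and 205 CPM in cytoplasm. Its ratio was 15.6-fold lower in mCtx (log2 -3.96 ± 0.19, adjusted p = 2.68e-14). Spcs3, of the signal peptidase, had a log2 change of -3.49 ± 0.15, where the cytoplasm change did not pass the test (-0.06, adjusted p = 0.595) and the nucleoplasm level was lower in mCtx by a log2 change of -3.56. Magt1, of the oligosaccharyltransferase, was changed by -3.19 ± 0.21.

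Lysosomal enzymes and membrane proteins, which also enter the ER, had a lower ratio in mCtx for 31 of 32 genes and a higher one for 0. The median was -2.64, from -3.24 with total counts to -1.10 on log2(TPM + 1). Cathepsin B (Ctsb) was at 218, 141 and 142 CPM in mESC nucleoplasm against 26.8, 14.7 and 15.1 CPM in cytoplasm, and at 227, 182 and 209 CPM against 230.4, 243 and 264 CPM in mCtx. Nucleoplasm levels overlapped between the cell types, and the log2 change of -3.39 ± 0.30 (adjusted p = 5.86e-10) lay in the cytoplasm, where the level was higher in mCtx by a log2 change of 3.70.

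Other secreted and membrane proteins moved less uniformly. Cholesterol synthesis, whose later enzymes sit in the ER membrane, had 11 of 20 genes lower and 4 higher (median -1.62). Of 33 axon guidance genes 24 were lower and 1 higher, with a median of -1.23. It was 0.50 on log2(TPM + 1) and -0.23 after rescaling, beside 0.82 and 0.10 over all genes. All 33 had a ratio above 0 in mESC and 28 did in mCtx. The semaphorin receptor Plxnb2 was at 175, 134 and 109.5 CPM in mESC nucleoplasm against 18, 14.8 and 13.2 CPM in cytoplasm, and at 208, 179.6 and 196 CPM against 101, 114 and 102 CPM in mCtx. It was nucleoplasm-high in both cell types, with a log2 change of -2.30 ± 0.23 (adjusted p = 5.63e-09). Of 30 collagen and laminin genes 10 (33.3%, near the 31.1% over all genes) were lower and 2 higher, with a median of -1.11. It was 0.01 on log2(TPM + 1), under the 0.82 over all genes, and -0.72 without the mESC libraries numbered 1. Of 18 integrins and classical cadherins 7 (38.9%, beside 31.1% over all genes) were lower and 2 higher. Their median of -0.74 was 0.23 on log2(TPM + 1), also under that of all genes. The matrix gene Lamc1 and the integrin Itgb1 were lower by log2 changes of -2.19 ± 0.18 and -2.30 ± 0.18 and stayed nucleoplasm-high in mCtx, with log2 ratios of 1.71 and 1.22.

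RNA encoded by the mitochondrial genome moved with these genes. It made up 29.1% ± 1.03 (SD, n = 3) of the counts in mESC nucleoplasm and 0.288% ± 0.0932 in mESC cytoplasm, against 2.12% ± 0.157 and 1.19% ± 0.368 in mCtx. In mNPC nucleoplasm it was 11.1% ± 4.14. In mESC these shares were mostly mitochondrial ribosomal RNA, in libraries depleted of ribosomal RNA. There mt-Rnr1 and mt-Rnr2 held 93.6% of the summed mitochondrial CPM in nucleoplasm and 95.2% in cytoplasm. In mCtx they held less, 31.2% in nucleoplasm and 44.9% in cytoplasm. The 7 mitochondrial messages tested summed to 22164 CPM in mESC nucleoplasm and 139 CPM in mESC cytoplasm, against 17069 CPM and 5952 CPM in mCtx, so that their nucleoplasm levels were closer between the cell types than their cytoplasm levels. The count table held 37 mitochondrial genes, and 26 of them reached 1 CPM in at least 1 of the 4 groups. None of the 26 lay between mt-Co1 (end at base 6872) and mt-Nd4 (start at base 10167). The sums and shares may therefore be partial, and the cause was not tested. With mitochondrial genes kept in the fit, all 26 mitochondrial RNAs tested had a lower ratio in mCtx. For the 7 messages the median log2 change was -5.47, from -6.86 to -5.23. Of 17 mitochondrial tRNAs, 14 had no read in at least 1 mESC cytoplasm library, and no fold is given for them. The oxidase subunit mt-Co1 was between 14473 and 15763 CPM in mESC nucleoplasm and between 75.8 and 136 CPM in mESC cytoplasm, and between 9226 and 10415 CPM and between 3569 and 4527 CPM in mCtx. Its ratio was lower in mCtx by a log2 change of -5.88 ± 0.37. The part that carriage of mitochondria or ER into the nucleoplasm libraries has in any ratio was not tested.

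The pattern extended beyond the named lists to the coding start in general. For 11605 of the reported protein-coding genes, the largest number of codons with T at the middle position in any 12 neighbouring codons within the first 35 was counted. The median log2 change of the ratio was 0.20 for genes with 4 such codons and 0.23 for genes with 5, and then 0.05 at 6, -0.83 at 7, -1.69 at 8, -1.80 at 9, -1.86 at 10 and -2.32 at 11. In mESC the median ratio was -0.20 at 6 such codons, 0.75 at 7 and 1.83 at 8. In mNPC it was -0.16, 0.38 and 1.24. In mCtx it was -0.01, -0.16 and 0.00.

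**Figure D2:**
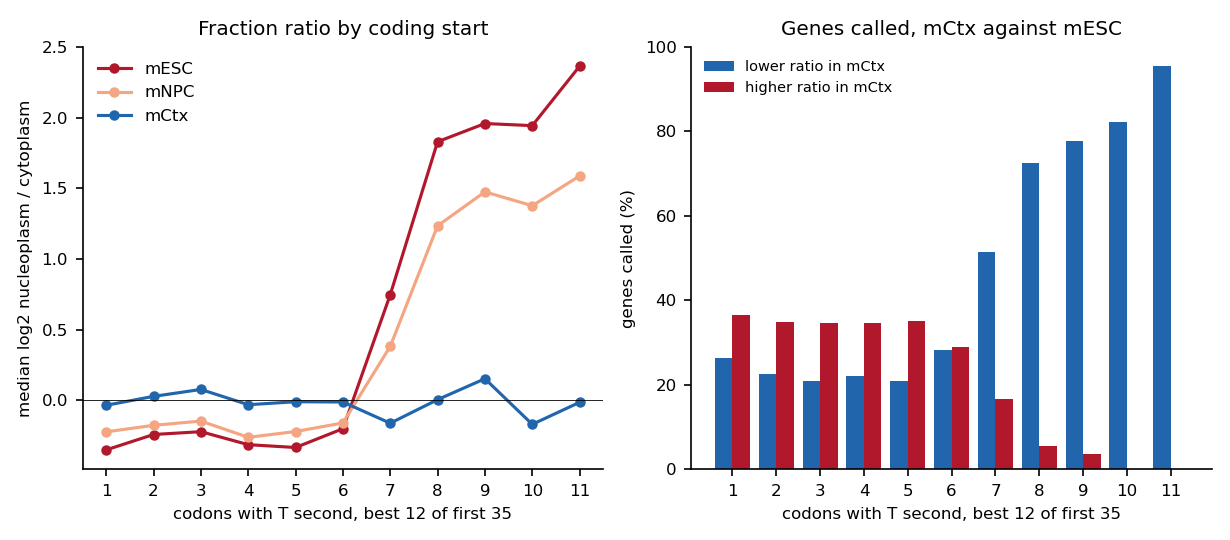
Left, the median log2 nucleoplasm-to-cytoplasm ratio (y axis) of genes grouped by the largest number of codons with T at the middle position in 12 neighbouring codons of the first 35 (x axis), in mESC, mNPC and mCtx. Right, the percentage of each group called lower or higher in mCtx than in mESC. The 4 genes with 12 such codons are left out. The mESC and mNPC medians rise from 7 codons on, and the lower calls rise from 28.1% at 6 to 72.5% at 8. On log2(TPM + 1), where the median over all genes was 0.82, the median change turns negative only from 8 codons on (-0.38).

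Genes with 8 or more such codons, called T-rich at the start, numbered 977, and 741 of them (75.8%) were lower and 40 (4.09%) higher in mCtx, with a median of -1.78. Over all reported protein-coding genes 59.4% were called, 29.7% higher and 29.8% lower. This limit and that of the next class were set after the values were seen. Genes without a T-rich start but with at least 13 such codons in some 20 neighbouring codons further on numbered 1157, with 738 lower, 155 higher and a median of -1.36 that was -0.03 on log2(TPM + 1). The 9471 genes with neither had 1975 lower and 3253 higher. Their median of 0.21 was -0.39 with total counts, beside -0.63 over all genes. Outside the 7 lists of secreted and membrane proteins described above, 685 of 907 genes with a T-rich start were lower. Membership was uneven across lists: 17 of 29 ER chaperones and folding enzymes had a T-rich start, 8 of 26 translocation genes, 12 of 32 lysosomal genes and 0 of 17 glycolysis genes. Hspa5, Serpinh1 and Ctsb, with 7 such codons, were just outside the limit.

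The ratio change also followed size. By coding length the median rose from -0.87 at up to 600 bases, where 913 of 1467 genes were lower and 39 higher, to -0.25 at 600 to 1200, 0.25 at 1200 to 2400, 0.75 at 2400 to 4800 and 0.98 above 4800 bases, where 357 of 587 were higher and 71 lower. On log2(TPM + 1) the medians kept this order but were all positive, from 0.23 to 1.56, beside 0.82 over all genes. After rescaling they ran from -0.58 to 0.80, beside 0.10. With total counts the class of 1200 to 2400 bases was at -0.35, beside -0.63 over all genes. By gene span the median rose from -0.64 up to 10 kb to 1.18 above 300 kb, where 222 of 364 genes were higher and 11 lower. After rescaling of TPM, which is estimated on spliced transcripts, those medians were -0.22 and 0.40. By exon number it rose from -1.0 for 1 exon to 0.88 for 20 or more. For 1 exon it was 0.28 on log2(TPM + 1), under the 0.82 over all genes.

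The coding start and the length were also set against each other. Among genes of 600 to 1200 coding bases the median was -2.09 for a T-rich start and -0.11 for neither, and among genes of 2400 to 4800 bases it was -1.19 and 0.88. With a T-rich start the medians did not rise over the 3 shortest length classes (-1.88, -2.09 and -1.88), nor did they with a T-rich stretch further on only (-1.40, -1.60 and -1.71). In the latter class the 94 genes over 4800 bases had 47 higher and 19 lower. Among genes spanning over 300 kb the contrast was smaller, with 0.26 for the 48 genes with a T-rich start and 1.42 for the 241 with neither. In genes with neither feature and a span of 10 to 30 kb, the median still rose with coding length, from -0.62 at up to 600 bases to 0.72 at 2400 to 4800. Of the 100 genes with the lowest change, 85 had a coding start to examine, and 41.2% of these had a T-rich start against 6.25% of 96 among the 100 highest and 8.42% of all. Their median coding length was 1029 bases, against 3108 among the 100 highest and 1431 among all.

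**Figure D3:**
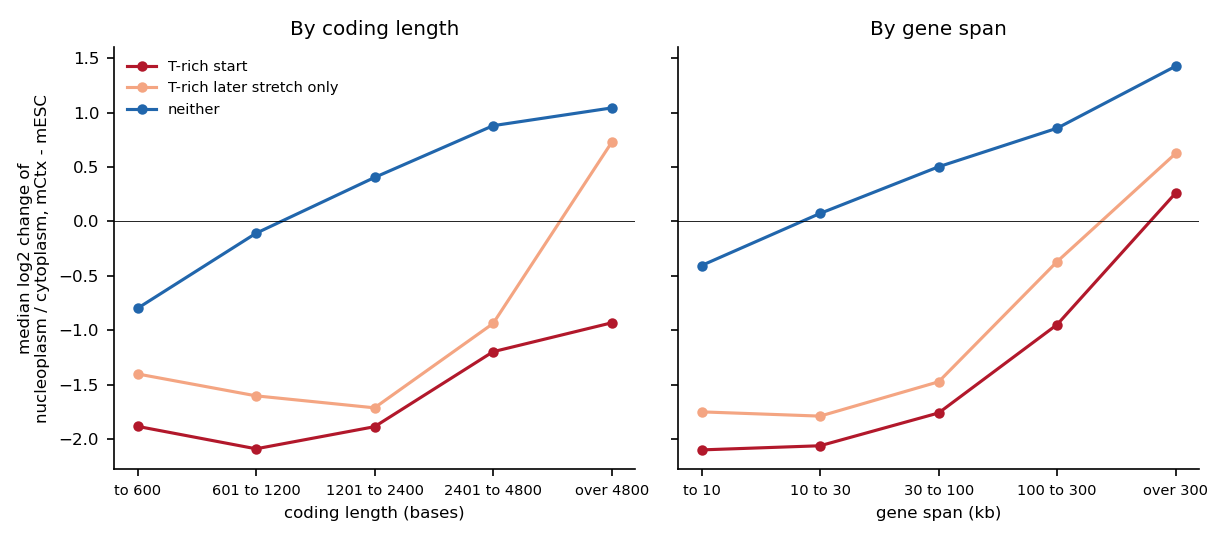
Median log2 change of the nucleoplasm-to-cytoplasm ratio, mCtx against mESC (y axis), by class of coding length (left) and of gene span (right), drawn as lines for genes with a T-rich start, genes with a T-rich stretch further on only, and genes with neither. By coding length the longest class lies above the shortest in each line, at -0.93 against -1.88 for a T-rich start and at 1.04 against -0.80 for neither, and levels are relative to the median of all genes, which total-count scaling moves from -0.02 to -0.63.

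Lists of short housekeeping messages, nearly all without a T-rich start, differed in how many members were lower. Of 82 cytosolic ribosomal protein genes 75 had a lower ratio in mCtx and 0 a higher one, with a median of -1.39, from -1.99 with total counts to -0.19 on log2(TPM + 1). These messages were cytoplasm-high already in mESC (median ratio -0.91) and more so in mNPC (-1.59) and mCtx (-2.24). Rps29 was at 386, 506 and 319.7 CPM in mESC nucleoplasm against 256, 237 and 238 CPM in cytoplasm, and at 137, 125 and 153 CPM against 614, 662 and 640.4 CPM in mCtx. It was nucleoplasm-high in mESC and cytoplasm-high in mCtx, with a log2 change of -2.94 ± 0.23 (adjusted p = 7e-11). Ribosomal protein genes have many processed copies in the genome, so their counts are uncertain. Oxidative phosphorylation subunits encoded in the nucleus, 75 in all, had a lower ratio in 57 cases and a higher one in 6, with a median of -1.14. It was 0.06 on log2(TPM + 1) and -0.89 after rescaling, beside 0.82 and 0.10 over all genes. Cox7b, a cytochrome oxidase subunit, was lower by -1.86 ± 0.19. Of 74 mitochondrial ribosomal protein genes 29 (39.2%, beside 31.1% over all genes) were lower and 9 (12.2%, beside 28.4%) higher. Their median of -0.41 was 0.82 on log2(TPM + 1), the same as over all genes, and -0.05 after rescaling. Mrpl42 was lower by -1.69 ± 0.19.

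Replication-dependent histone messages, which end in a stem-loop instead of a poly(A) tail, had a lower ratio in mCtx for 36 of 47 genes and a higher one for 0. The median was -1.25, from -1.85 with total counts to -0.04 on log2(TPM + 1). Hist1h2ad was at 26, 22.6 and 22.9 CPM in mESC nucleoplasm against 123, 85 and 65.9 CPM in cytoplasm, and at 0.703, 0.385 and 0.367 CPM against 13.4, 13 and 7.29 CPM in mCtx. It was cytoplasm-high in both cell types, by 3.83-fold in mESC and 23-fold in mCtx (log2 change -2.59 ± 0.51, adjusted p = 0.000133). Histone genes are near-identical to each other, which makes single values uncertain.

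The list with the largest share of higher calls was that of the nuclear pore and nuclear transport, where 31 of 40 genes were higher and 3 lower. The median was 1.00, from 0.40 with total counts to 1.96 on log2(TPM + 1). Nup93, a scaffold nucleoporin, was at 122, 171 and 177 CPM in mESC nucleoplasm against 279, 325 and 366 CPM in cytoplasm, and at 85.4, 92.8 and 84.7 CPM against 40.6, 40 and 42.4 CPM in mCtx. The order of the fractions was turned around without overlap, with a log2 change of 2.14 ± 0.18 (adjusted p = 1.78e-10). Tpr, of the nuclear basket, was nucleoplasm-high in both, with log2 ratios of 0.83 in mESC and 2.79 in mCtx. Glycolysis had 10 of 17 genes higher and 0 lower, with a median of 1.00, from 0.40 to 2.20 under the same alternatives. Without the mESC libraries numbered 1, 11 were higher and 1 lower. The phosphofructokinase Pfkm was at 23.9, 26.4 and 26.4 CPM in mESC nucleoplasm against 73.6, 68 and 66.7 CPM in cytoplasm, and at 103, 96.8 and 106 CPM against 72.2, 73.6 and 67.2 CPM in mCtx. The change of its cytoplasm level did not pass the test (0.03, adjusted p = 0.796), and the log2 change of the ratio, 1.97 ± 0.16, lay in nucleoplasm.

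Gapdh, the glycolytic gene most used as a reference, was at 623, 849 and 856 CPM in mESC nucleoplasm against 2430.2, 2204 and 2317 CPM in cytoplasm, and at 218, 178 and 211 CPM against 524, 521 and 512 CPM in mCtx. The log2 difference of its ratio, 0.22 ± 0.20, did not pass the test (adjusted p = 0.414). For beta-actin (Actb) the difference was 0.34 ± 0.26 (adjusted p = 0.306), and both were cytoplasm-high in both cell types.

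Lists of the gene expression machinery had more higher than lower calls. The share higher ran from 36.1% for detained-intron genes to 51.4% for proteasome subunits, beside 28.4% over all genes. The share lower ran from 2.86% to 21.9%, beside 31.1% over all genes. In 4 of the 6 lists the uncalled members were at least as many as the higher ones, and each median below turned negative with total counts. Of 32 core spliceosome genes 16 were higher and 7 lower, with a median of 0.53 that turned to -0.08 with total counts, beside -0.63 over all genes at that scaling. Snrnp200, the helicase that unwinds U4 from U6, was at 257, 319 and 290.4 CPM in mESC nucleoplasm against 673, 629 and 628 CPM in cytoplasm, and at 285, 272 and 306 CPM against 75.1, 84.9 and 73.6 CPM in mCtx. The nucleoplasm level was close in both cell types (log2 change -0.01, adjusted p = 0.98), and the 8.23-fold higher ratio lay in the cytoplasm, which was lower in mCtx. Prpf8, at the centre of the spliceosome, was higher by 2.50 ± 0.26 and likewise lower in mCtx cytoplasm, by a log2 change of -3.15. Of 36 translation factor genes 16 were higher and 3 lower, with a median of 0.39 that turned to -0.21 with total counts. Without the mESC libraries numbered 1, 14 were higher and 6 lower. The scaffold Eif4g1 was higher by 2.25 ± 0.23. Of 35 proteasome subunits 18 were higher and 1 lower (median 0.53, or -0.07 by total counts), led by Psmd2 at 1.99 ± 0.22. Of 33 SR and hnRNP genes 13 were higher and 2 lower (median 0.36, or -0.24 by total counts), and Hnrnpm was higher by 1.87 ± 0.20. Of 36 genes known for detained introns, which keep transcripts in the nucleus, 13 were higher and 3 lower (median 0.32, or -0.29 by total counts), among them Son at 1.69 ± 0.18 and Ogt at 1.39 ± 0.18. Of 35 cell cycle and replication genes 15 were higher and 5 lower (median 0.28, or -0.32 by total counts), and Top2a, at 1.58 ± 0.17, was far less abundant in mCtx, with 62 to 134 CPM against 1118 to 1831 CPM in mESC.

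**Figure D4:**
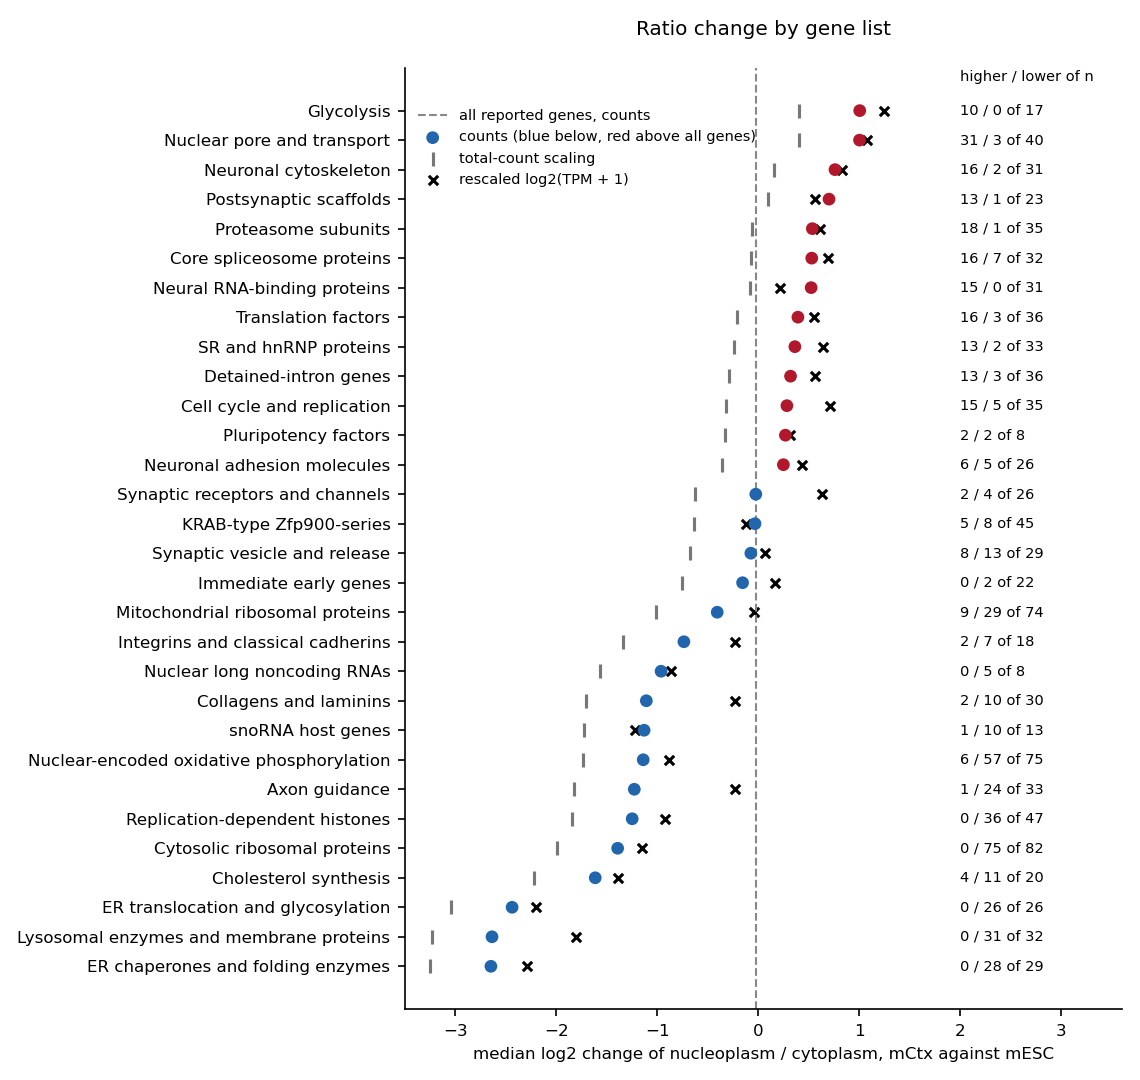
Median log2 change of the nucleoplasm-to-cytoplasm ratio, mCtx against mESC (x axis), of 30 gene lists: dots from the counts, grey bars with total-count scaling and crosses on rescaled log2(TPM + 1), with the numbers of members called higher and lower at the right. Medians from the counts run from -2.65 for ER chaperones to 1.00 for glycolysis. Total-count scaling shifts all lists down and puts proteasome (-0.07) through neuronal adhesion (-0.36) below 0, beside -0.63 over all genes. Unscaled TPM, not drawn, puts axon guidance (0.50), collagens (0.01), integrins (0.23), oxidative phosphorylation (0.06), mitochondrial ribosomal proteins (0.82), synaptic receptors (1.51), synaptic vesicle (0.99), immediate early (0.64) and KRAB-type genes (0.51) above 0, beside 0.82 over all genes.

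Neuronal gene lists differed in the direction of their calls, beside 28.4% higher and 31.1% lower over all genes. Of 31 neuronal cytoskeleton genes 16 were higher and 2 lower, with a median of 0.76, from 0.16 with total counts to 1.79 on log2(TPM + 1). Map1b, a microtubule-associated protein of growing axons, was at 167, 174 and 134 CPM in mESC nucleoplasm against 171, 161 and 134 CPM in cytoplasm, and at 10253, 10166 and 10603 CPM against 1323, 1201 and 1343 CPM in mCtx. The mESC fractions overlapped (log2 ratio 0.03) and the mCtx fractions stood 8.02-fold apart, with a log2 change of 2.98 ± 0.29 (adjusted p = 3.77e-09). Tubb2a, a beta-tubulin, was higher by 1.94 ± 0.32. Of 23 postsynaptic scaffold genes 13 were higher and 1 lower, with a median of 0.70, from 0.10 to 1.41 under the same alternatives. Most of those led by size were long genes: Dlgap1, which spans chr17:69969073-70821413, was higher by 2.42 ± 0.25, but by 0.28 on rescaled log2(TPM + 1). Of 31 neural RNA-binding protein genes 15 were higher and 0 lower, with a median of 0.52 that turned to -0.08 with total counts. Khdrbs3 was higher by 1.89 ± 0.14 and Celf2 by 1.93 ± 0.24. Without the mESC libraries numbered 1, the counts were 15 higher and 5 lower.

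Synaptic vesicle and release genes split, with 8 of 29 higher and 13 lower, and a median of -0.08 that was 0.19 without the mESC libraries numbered 1, 0.99 on log2(TPM + 1) and 0.07 on rescaled TPM. Syt4, a synaptotagmin with a membrane anchor and a T-rich start, was lower by -4.16 ± 0.35, but it was at only 0.162 to 0.651 CPM in mESC cytoplasm. Of 26 synaptic receptors and channels 2 were higher and 4 lower, although 7 had a T-rich start and 18 a T-rich stretch further on. Their median ratio was 1.63 in mESC and 1.60 in mCtx. Their median change of -0.03 became 0.47 without the mESC libraries numbered 1, 1.51 on log2(TPM + 1) and 0.63 on rescaled TPM. The GABA-B receptor gene Gabbr1 was at 32.6, 22.9 and 25.6 CPM in mESC nucleoplasm against 14.7, 13.9 and 17.4 CPM in cytoplasm, and at 399.5, 349 and 369.8 CPM against 483, 479 and 459 CPM in mCtx. The order of the fractions was reversed, with a log2 change of -1.16 ± 0.22 (adjusted p = 0.00011), which was 0.10 on log2(TPM + 1) and -0.89 after rescaling. Its partner Gabbr2 was at 0.135 to 0.27 CPM in mESC, too low for a ratio there, and at 299.6, 285 and 263 CPM against 233, 237 and 223 CPM in mCtx. Of 26 neuronal adhesion genes 6 (23.1%) were higher and 5 (19.2%) lower, both under the shares over all genes of 28.4% and 31.1%. Their median was 0.25, or -0.36 by total counts. Cntnap2, which spans chr6:45060061-47301369, was higher by 3.08 ± 0.25, but by 0.18 on rescaled log2(TPM + 1).

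Of 5 splicing regulators and postsynaptic genes chosen for their role in neuronal differentiation, Srrm4 alone passed the test. Ptbp1 was at 203, 323 and 319 CPM in mESC nucleoplasm against 461, 668 and 710.1 CPM in cytoplasm, and at 38.7, 32.4 and 34 CPM against 63.8, 66.5 and 58.3 CPM in mCtx. Its level was lower in mCtx in both fractions while the log2 difference of the ratio was 0.28 ± 0.23 (adjusted p = 0.354). For Ptbp2 the difference was 0.25 ± 0.20 (adjusted p = 0.338), for Dlg4 -0.32 ± 0.32 (adjusted p = 0.452) and for Camk2a -0.02 ± 0.29 (adjusted p = 1). A p that misses the threshold does not show that the ratios were alike. Srrm4 was higher by 1.23 ± 0.38 (adjusted p = 0.00916), a call lost with total counts (0.63), and it was at only 0.651 to 1.46 CPM in mESC.

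Pluripotency factors could be followed for 8 genes that stayed above 1 CPM in mCtx, of which 2 were higher and 2 lower (median 0.27, or -0.33 by total counts). Immediate early genes had 2 of 22 lower and 0 higher (median -0.16, 0.64 on log2(TPM + 1)). Of 45 KRAB-type zinc finger genes 5 were higher and 8 lower (median -0.03, 0.51 on log2(TPM + 1)).

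Of 8 nuclear long noncoding RNAs 5 had a lower ratio in mCtx and 0 a higher one, with a median of -0.96, from -1.57 with total counts to -0.06 on log2(TPM + 1). In mCtx 7 of the 8 still had a ratio above 0, and RNA held on chromatin is not in the ratio. Malat1, which resides in nuclear speckles, was at 10827, 5030.2 and 4087 CPM in mESC nucleoplasm against 1562, 1313 and 1225 CPM in cytoplasm, and at 9157, 9437 and 9924 CPM against 7056, 5149.6 and 6430.3 CPM in mCtx. It was nucleoplasm-high in both cell types without overlap, by 4.87-fold in mESC and 1.53-fold in mCtx, and the first mESC replicate was the highest in each mESC fraction. The log2 change was -1.67 ± 0.37 (adjusted p = 0.000471). Tug1 went from 298, 181 and 218 CPM in mESC nucleoplasm and 44.4, 26.3 and 26.4 CPM in cytoplasm to 203, 188 and 206 CPM and 360.0, 263 and 302 CPM in mCtx. Its nucleoplasm levels overlapped between the cell types, and the change of -3.47 ± 0.26 (adjusted p = 4.77e-11) lay in the cytoplasm. Neat1, the backbone of paraspeckles, was lower by -1.44 ± 0.50 (adjusted p = 0.0207), a call that was lost without the first mESC nucleoplasm library (-0.80) and under 4 other alternatives. Meg3 did not pass the test (-0.52 ± 0.38, adjusted p = 0.282), but it was called with total counts (-1.13) and with the replicate number as a block (-0.63). Of 13 snoRNA host genes 10 were lower and 1 higher, with a median of -1.13, and Gas5 was lower by -1.89 ± 0.15.

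**Figure D5:**
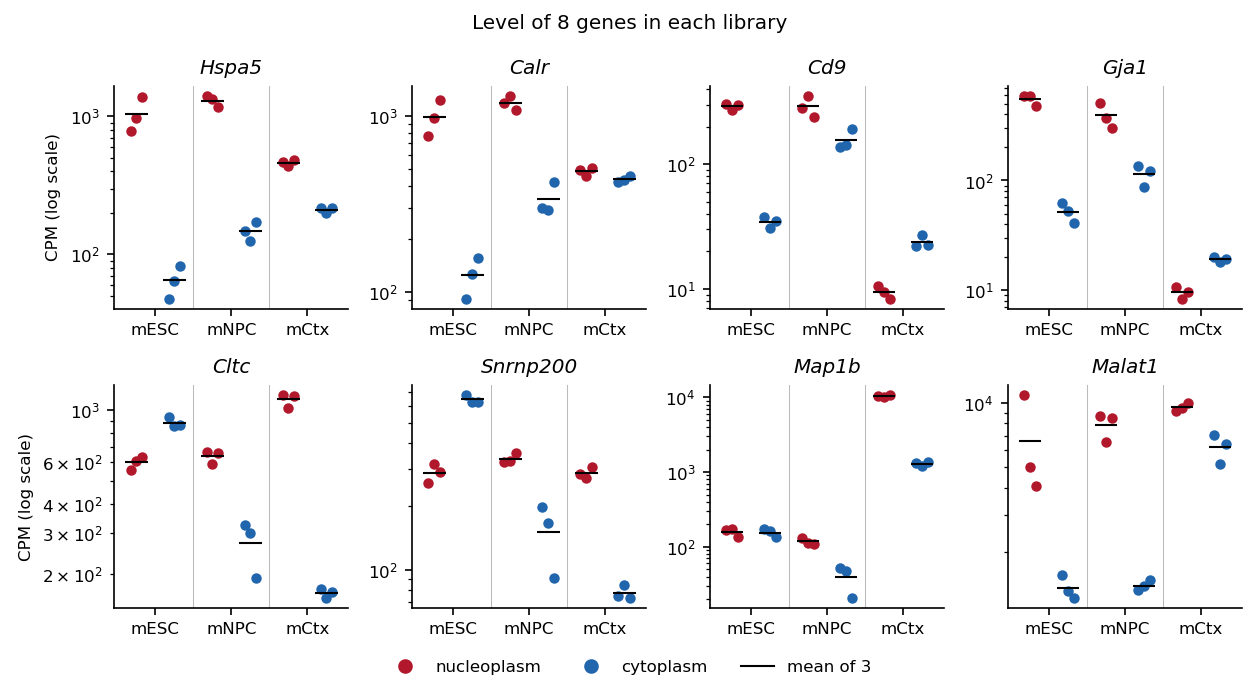
Level in CPM on a log axis (y axis) of 8 genes in each nucleoplasm (red) and cytoplasm (blue) library of mESC, mNPC and mCtx (x axis), with the mean of 3 as a bar. The gap between nucleoplasm and cytoplasm narrows from mESC to mCtx for Hspa5, Calr and Malat1, reverses for Cd9 and Gja1 (lower ratio in mCtx) and for Cltc and Snrnp200 (higher ratio in mCtx), and opens for Map1b.

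The largest single changes were named by a rule of size among genes at 10 CPM or more in each cell type. On the lower side the first was Gm26316, a short RNA of the snRNA class with many near-identical copies, at 196, 94.1 and 97.5 CPM in mESC nucleoplasm against 57.3, 38.1 and 19.5 CPM in cytoplasm and at 1.17, 1.23 and 0.954 CPM against 13.2, 11.8 and 7.29 CPM in mCtx (log2 -5.02 ± 0.59, adjusted p = 8.88e-08). Its count is uncertain, since reads from copies may be shared among them. The other 11 were coding genes, and all of them encode membrane, secreted, ER or Golgi proteins. Tmed7, a cargo receptor between ER and Golgi, was at 226, 198 and 233 CPM in mESC nucleoplasm against 32, 28.5 and 26.4 CPM in cytoplasm, and at 43.8, 38.8 and 37.3 CPM against 143, 119 and 119 CPM in mCtx. The reversal was without overlap, with a log2 change of -4.59 ± 0.16 (adjusted p = 1.68e-16), and an annotated gene on the same strand covers 38.3% of the Tmed7 span. Cd9 was at 304, 269.9 and 297 CPM in mESC nucleoplasm against 38, 31 and 34.8 CPM in cytoplasm, and at 10.5, 9.48 and 8.36 CPM against 21.9, 27 and 22.4 CPM in mCtx. Its ratio was 21.1-fold lower in mCtx (log2 -4.40 ± 0.22, adjusted p = 3.45e-14). Gja1, which is also an astrocyte marker, was at 587, 583 and 481 CPM in mESC nucleoplasm against 61.7, 52.7 and 40.7 CPM in cytoplasm, and at 10.7, 8.4 and 9.54 CPM against 20.2, 18.1 and 19.4 CPM in mCtx (log2 -4.42 ± 0.33, adjusted p = 3.22e-11). The tetraspanins Tspan6 (-4.44) and Tspan31 (-4.10), Mmgt1 of the ER membrane insertase (-4.46), Spp1 (-4.38), the Golgi mannosidase Manea (-4.22), the ER-shaping protein Arl6ip1 (-4.12), the Golgi phosphatase Impad1 (-4.11) and the ER thioredoxin Tmx1 (-4.05) completed the set.

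On the higher side, long messages and long genes led. Cltc was at 558, 609 and 633 CPM in mESC nucleoplasm against 934, 854 and 862 CPM in cytoplasm, and at 1158, 1024 and 1156 CPM against 174, 159 and 169 CPM in mCtx. The order of the fractions was turned around without overlap, with a 9.8-fold higher ratio in mCtx (log2 3.29 ± 0.21, adjusted p = 2.37e-12), and the log2 change on rescaled TPM was 3.47. Pde4d was at 211, 202 and 216 CPM in mESC nucleoplasm against 495, 417 and 428 CPM in cytoplasm, and at 331, 358 and 315 CPM against 67.8, 62.9 and 65.4 CPM in mCtx (log2 3.44 ± 0.16, adjusted p = 1.33e-14). On rescaled TPM its change was 0.44, so for this long gene the spliced estimate moved far less than the count over the gene span. The axonal motors Kif1a and Kif1b of the kinesin-3 family were higher by 3.34 ± 0.60 and 2.98 ± 0.19, and by 3.40 and 3.25 on rescaled TPM. The ubiquitin ligase Herc2, with a coding length of 14508 bases, was higher by 2.90 ± 0.19 and by 2.74 on rescaled TPM. In Enox1 (3.20 ± 0.22), Fars2 (2.98 ± 0.15), Macrod2 (2.92 ± 0.28) and Spata5 (2.89 ± 0.15) the change on rescaled TPM was smaller, at 1.65, 0.68, 0.64 and 1.55. Acan, the proteoglycan aggrecan, was 1 of the 40 genes with a T-rich start and a higher ratio: it had 9 codons with T in the middle within 12 and was higher by 2.88 ± 0.36, at 14.2, 12.2 and 7.62 CPM in mESC nucleoplasm against 17, 15.9 and 12.7 CPM in cytoplasm, and at 15.2, 12.5 and 16.3 CPM against 2.49, 2.09 and 3.44 CPM in mCtx. Kalrn, a guanine exchange factor of dendritic spines, was higher by 2.76 ± 0.34 and by 1.93 on rescaled TPM.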

How the data were processed

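RNA of nucleoplasm and cytoplasm was sequenced in 3 replicates per fraction of mESC and mCtx. The authors deposited counts per gene and, in another table, TPM values. The submitters' processing notes name STAR, featureCounts, kallisto and mm10, and their versions are not given in the sources used here. The deposited count table covers whole gene spans, since its length column equals the span for all 37332 genes. GENCODE M21 matched 35533 of these IDs, 24078 with identical coordinates, and gave exons, coding lengths and coding starts.

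Counts were fitted with edgeR 4.0.16 in R 4.3.3 (quasi-likelihood test, TMM scaling, its expression filter) over all 27 libraries with 1 coefficient per group and 18 residual degrees of freedom, without the 37 mitochondrial rows. Calls used a Benjamini-Hochberg adjusted p under 0.05. CPM are TMM-scaled. Alternatives used DESeq2 1.42.0 and limma 3.58.1 on log2(TPM + 1), where the pseudocount shrinks changes of low genes. The fits were tested on simulated data. Nothing in the labels says whether the biological replicates came from separate cultures or animals, so p-values measure the spread between these libraries. Members and gene lists were chosen with earlier results of these data known. Genes were named by size: the 12 largest changes in each direction at 10 CPM or more with ratios of same-numbered libraries that do not overlap, the 6 largest that reversed, up to 4 per list, and a set of reference and neuronal genes. Some genes that this rule names are not reported here. Hydrophobic stretches were read from codons, as proteins were not used here. Same-numbered nucleoplasm and cytoplasm libraries deviated together in mESC (r 0.39 to 0.71) but not in mCtx (0.00 to 0.07).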

Additional observations from a re-analysis of the deposited data

Results flagged for a closer look

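The test of the difference between cell types itself picked out 7386 genes whose nucleoplasm-to-cytoplasm ratio differed between mCtx and mESC. The 6 largest falls among genes at 10 CPM or more whose fractions were in opposite order in the cell types were log2 changes of -5.02 for Gm26316, -4.59 for Tmed7, -4.46 for Mmgt1, -4.44 for Tspan6, -4.42 for Gja1 and -4.40 for Cd9. The count of the short RNA Gm26316 is uncertain, as described above. The 6 largest rises of that kind were log2 changes of 3.44 for Pde4d, 3.29 for Cltc, 3.04 for Snrnp200, 2.90 for Herc2, 2.89 for Spata5 and 2.76 for Kalrn.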

How the results depend on the processing

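The number of genes with a different ratio was 7386 and lay between 6929 and 7477 when 1 of the 12 libraries was left out (higher 3294 to 3565, lower 3626 to 3946), and at 7889 without the mESC libraries numbered 1 (3814 higher, 4075 lower). The same omissions gave 8126 to 9580 calls within mCtx (higher 4023 to 4717, lower 4087 to 4863) and 8673 to 9176 within mESC (higher 3974 to 4396, lower 4592 to 4851). With the replicate number as a block, 8432 genes were called; the data pair the numbers in mESC but not in mCtx, and a block in mESC only gave 8427. DESeq2 called 7838 (4479 higher, 3359 lower), median-ratio scaling 7672 (4376 and 3296) and the fit with mitochondrial genes 7505 (3948 and 3557), so in all of these the higher calls were the majority.

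The split by direction moved most. Total counts gave 1542 higher and 6174 lower. A test against a log2 change of 1 gave 2843 (924 higher, 1919 lower), 2723 within mCtx (1552 and 1171) and 2886 within mESC (2386 and 500). On log2(TPM + 1) the ratio calls were 6952 higher and 1145 lower, on log2(TPM + 0.1) 6520 and 1183, and with no filter 6624 and 1075. The same 3 settings gave 7061 and 603, 7122 and 567, and 6854 and 536 within mCtx. Within mESC, log2(TPM + 1) gave 2674 higher and 4322 lower, and 2604 and 4057 with no filter. On rescaled TPM the split was 2675 higher and 4743 lower within mCtx and 2681 and 5780 within mESC.

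Among 154 named genes, 0 of those with a called ratio change turned sign under the count alternatives or omissions. On TPM 15 did, for which the cause was not tested. Small changes that were not called, such as that of Gapdh, are outside these numbers, and their sign depends on scaling. The medians over all genes were 0.82 on log2(TPM + 1), 1.02 on log2(TPM + 0.1) and 0.10 after rescaling. A value above 0 but under that median is still low relative to all genes. On log2(TPM + 1) only Lamb3, Scn3a, Sema3c and Nrp1 of those listed next lay above the median. On log2(TPM + 1) the log2 changes turned positive for Lamb3 (1.243), Col4a2 (0.010), Mrps17 (0.117), Snhg11 (0.233), Nr4a2 (0.408), Gabbr1 (0.096), Scn3a (1.561), Snap25 (0.168), Sema3c (0.919), Nrp1 (1.234), Zfp970 (0.149), Zfp994 (0.272), Zfp942 (0.300), Zfp950 (0.528) and Sox2 (0.443). On log2(TPM + 0.1) they did for Lamb3 (0.952), Mrps17 (0.105), Snhg11 (0.448), Scn3a (0.058), Sema3c (0.054), Nrp1 (0.631), Zfp970 (0.234), Zfp994 (0.182), Zfp950 (0.146) and Sox2 (0.376). On rescaled TPM they did for Lamb3 (0.535), Scn3a (0.622) and Nrp1 (0.288). Low levels in mESC limit the ratios of neuronal genes.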
